A study of Homo sapiens with 2 samples.

Results

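Tetraspanins are membrane proteins that cross the bilayer repeatedly, hold a large extracellular loop with disulfide bonds, and gather integrins, proteases and receptors into membrane domains. Several of them, with CD63, CD9 and CD81 as the usual markers, are carried on exosomes, and CD82 (KAI1) is known as a suppressor of metastasis in several carcinomas. Most are N-glycosylated in the endoplasmic reticulum (ER), where GANAB, the catalytic subunit of glucosidase II, trims glucose from new N-glycans. Only messenger RNA was measured here, not protein, glycan or surface level.

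The genes described are 9 of the 33538 listed: CD82, CD9, CD63, CD81, CD151, TSPAN3, TSPAN4, TSPAN13 and TSPAN14. They were taken by symbol, and they were selected on results of these same libraries, in which CD82 stood out by its lower level in the knockdown. The CD82 difference between the libraries is therefore a description and supports nothing. The other 24 genes of a list of 33 tetraspanins served for comparison.

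The libraries came from UMUC3 cells, a line from a human bladder carcinoma. The cells had been placed orthotopically, in the bladder of C57 nude mice, which lack normal T cells, and had grown there for 14 days. One library held cells labelled control and the other cells labelled GANAB knockdown; how the knockdown was made, whether a line was 1 clone, what the control carried and how many mice were pooled are not stated in the labels. Each group was thus 1 library, so no test across samples was possible. All intervals below are 95% intervals that cover counting error only, and "lower" and "higher" compare these 2 libraries.

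Molecules were counted as unique molecular identifiers (UMIs), and levels are in CPM, a gene's UMIs relative to all UMIs of the summed cells. Cells were barcodes with at least 15000 UMIs and at most 20% mitochondrial UMIs, which gave 4385 control cells (214188781 UMIs, median 44046 per cell) and 2672 knockdown cells (132709954 UMIs, median 40933), with 4 barcodes occurring in both. GANAB was at 127 CPM in control and 42.3 CPM in knockdown cells, a log2 ratio of -1.58 (-1.62 to -1.54), in the direction of the label. The UMUC3 marker list was present in both libraries (VIM at 3548 and 5697 CPM, 6 and 8 of 8 genes at 10 CPM or more). No gene of the urothelial, leukocyte, endothelial or fibroblast marker lists reached 10 CPM in either library. Their summed levels in control and knockdown cells were 2.85 and 4.18 CPM for differentiated urothelium, with UPK3A and KRT20 at 0, and 0.416 and 0.799 for leukocytes, with CD3E at 0. They were 0.103 and 0.324 CPM for endothelium and 14.8 and 12.1 for fibroblasts, with DCN and LUM at 0. A median of 0.179% of a control cell's UMIs and 0.0552% of a knockdown cell's came from 41 genes of S, G2 and M phase. By the size rule given below, 15 of these were lower in the knockdown and none was higher (median log2 ratio -0.51). By the same rule, 10.4% of all measured genes were lower and 7.69% were higher. The libraries thus also differed in cell cycle genes. Levels within cells of like phase gene share are given below for CD82 and some other tetraspanins. The part of the cell cycle in the remaining results was not tested.

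Some control cells carried the long noncoding RNA TMEM132D-AS1, which was at 9.41 CPM in the control and 131 CPM in the knockdown library. Cells with at least 2 of its UMIs made up 241 control cells (5.50%, median 51552 UMIs) and 1942 knockdown cells (72.7%, median 41100 UMIs). These are called TMEM132D-AS1 cells below. GANAB stayed at 130 CPM in the control cells of this class, against 38.1 CPM in the knockdown cells. The class was therefore used for a comparison between libraries among cells that share this transcript. Phase genes differed between the libraries within the class too, with a median share of 0.185% in control and 0.0535% in knockdown cells. By the size rule, 19 of the 41 phase genes were lower in the knockdown and none was higher (median log2 ratio -0.50). Of all measured genes in that comparison, 4.59% were lower and 3.58% were higher.

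A gene counted as measured at 10 CPM or more in either group compared, and as lower or higher at a ratio of at least 1.5 whose interval excluded 1 (a size rule, with no test behind it). Between the whole libraries, 10.4% of 7872 measured genes were lower in the knockdown and 7.69% were higher, with a median log2 ratio of -0.07. Among TMEM132D-AS1 cells, 4.59% of 7720 genes were lower in the knockdown and 3.58% were higher (median -0.09). Between control TMEM132D-AS1 cells and the other control cells, 4.41% of 7747 genes were lower in the former and 4.58% were higher (median -0.01). Among cells with fewer than 2 TMEM132D-AS1 UMIs, 8.57% of 7886 genes were lower in the knockdown and 7.85% were higher (median -0.03). The comparisons share control cells, so they are not independent of each other.

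CD82 was the 1 gene of the 9 past the size rule between the libraries, and it was lower in the knockdown. The 7 other measured genes stayed within 1.5-fold, and TSPAN13 was hardly detected. CD82 stood at 111 CPM in control cells (23861 UMIs, interval 110.0 to 113) and at 21.2 CPM in knockdown cells (2820 UMIs, 20.5 to 22.0). It was 5.24-fold lower, a log2 ratio of -2.39 (-2.45 to -2.33), the rank of 32 from the lowest of 7872 genes. CD82 took 4.58% of the UMIs of the 9 genes in control cells and 0.956% in knockdown cells, while the summed level of all 9 was 2434 CPM and 2223 CPM.

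CD82 (ENSG00000085117) lies on the short arm of chromosome 11, at 44564427 to 44620363 on the plus strand of GRCh38. The 250 bases before its RefSeq start (chr11:44565413-44565662, plus strand, GRCh38.p14) are shown because CD82 carries the largest difference among these genes. Capitals mark the GC box GGGCGG, searched on both strands.
CD82: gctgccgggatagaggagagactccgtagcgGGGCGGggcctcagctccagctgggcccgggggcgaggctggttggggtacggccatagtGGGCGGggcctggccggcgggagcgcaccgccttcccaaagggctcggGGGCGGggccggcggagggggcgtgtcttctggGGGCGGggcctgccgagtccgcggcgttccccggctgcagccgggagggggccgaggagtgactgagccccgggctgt
The GC box occurred 4 times. Any GC box was present in 42.6% of 35116 promoter windows of the same length. Such boxes were not particular to CD82 among the 9 genes. A window of CD9 (76.8% GC) and a window of TSPAN14 (88% GC) held 6 each, and a window of TSPAN4 (84% GC) held 4. Other windows of these genes held fewer. The CD82 window held no AP-1 motif (TGANTCA, in 6.57% of windows), no CCAAT (32.0%) and no TATAAA (10.7%). Its GC content was 77.2% against a median of 58% over all windows.

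The exosome markers CD63, CD9 and CD81 were the most abundant of the 9 by UMI count, together with CD151. The 3' assay counts a molecule once whatever its length, so UMI levels can be set side by side between genes, although capture of each 3' end can differ. CD63, a tetraspanin of late endosomes and lysosomes that is also carried on exosomes, was at 1218 CPM in control and 1060 CPM in knockdown cells. That is a log2 ratio of -0.20 (-0.21 to -0.19), and CD63 made up 50.02% and 47.7% of the UMIs of the 9 genes. CD9, a surface tetraspanin that binds the immunoglobulin proteins IGSF8 and PTGFRN, was at 500.3 CPM and 510.2 CPM (log2 ratio 0.03). CD81, an entry factor of hepatitis C virus, was at 231 CPM and 281 CPM (0.28, interval 0.26 to 0.30). None of these 3 passed the size rule in either direction.

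CD151, which binds laminin-binding integrins, was at 226 CPM in control and 202 CPM in knockdown cells (log2 ratio -0.16). TSPAN4, known for its place in migrasomes, was level at 65.3 CPM and 65.7 CPM (0.01, -0.03 to 0.05). TSPAN3 was at 58.3 CPM and 60.6 CPM (0.06). TSPAN14, a member of the TspanC8 group that escorts the protease ADAM10 out of the ER, was the lowest of the measured genes, at 23.7 CPM and 20.7 CPM (-0.19). In control cells the order by level was CD63, CD9, CD81, CD151, CD82, TSPAN4, TSPAN3, TSPAN14 and TSPAN13. In knockdown cells CD82 stood below TSPAN4 and TSPAN3 and beside TSPAN14, whose intervals overlapped with its own (19.97 to 21.5 CPM for TSPAN14). TSPAN13 had 40 UMIs in control cells and 64 in knockdown cells, 0.187 and 0.482 CPM, and was not measured under the rule.

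**Figure D1:**
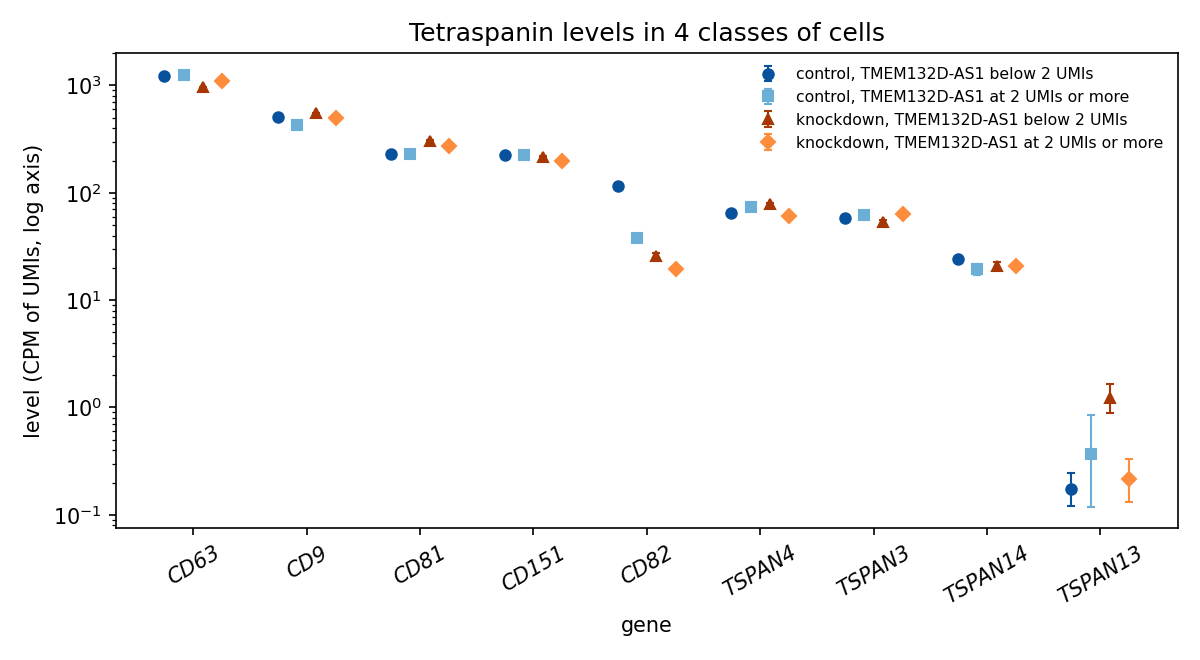
Levels of the 9 tetraspanins (CPM of UMIs, log axis) in control and knockdown cells with and without TMEM132D-AS1; points are sums over the cells of 1 library and bars are 95% Poisson intervals of counting error. CD82 goes from 116 CPM in control cells below 2 TMEM132D-AS1 UMIs to 19.6 CPM in knockdown TMEM132D-AS1 cells, while the levels of each other measured gene lie within 1.5-fold of each other and TSPAN13 stays below 2 CPM.

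Among TMEM132D-AS1 cells the CD82 gap between the libraries was smaller. CD82 was at 38.0 CPM in these control cells (520 UMIs, 34.8 to 41.4) and at 19.6 CPM in these knockdown cells (1913 UMIs, 18.7 to 20.5). It was 1.94-fold lower, a log2 ratio of -0.96 (-1.10 to -0.82), and again the 1 gene of the 9 past the rule. The ratio for CD9 was 0.19, for CD63 -0.18, for CD81 0.24, for CD151 -0.19, for TSPAN4 -0.28, for TSPAN3 0.01 and for TSPAN14 0.10. Within the control library alone, CD82 was at 38.0 CPM in TMEM132D-AS1 cells and 116 CPM in the other control cells. It was 3.06-fold lower in the former, a log2 ratio of -1.61 (-1.74 to -1.49), although GANAB differed by only 0.05. No other gene of the 9 passed the rule there, and CD81 and CD151 had ratios of 0.00. Among cells below 2 TMEM132D-AS1 UMIs, CD82 was at 116 CPM in control and 25.9 CPM in knockdown cells (-2.17, -2.26 to -2.07). A low CD82 level was thus found in the control TMEM132D-AS1 cells, where GANAB was not low, and in knockdown cells of both classes.

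**Figure D2:**
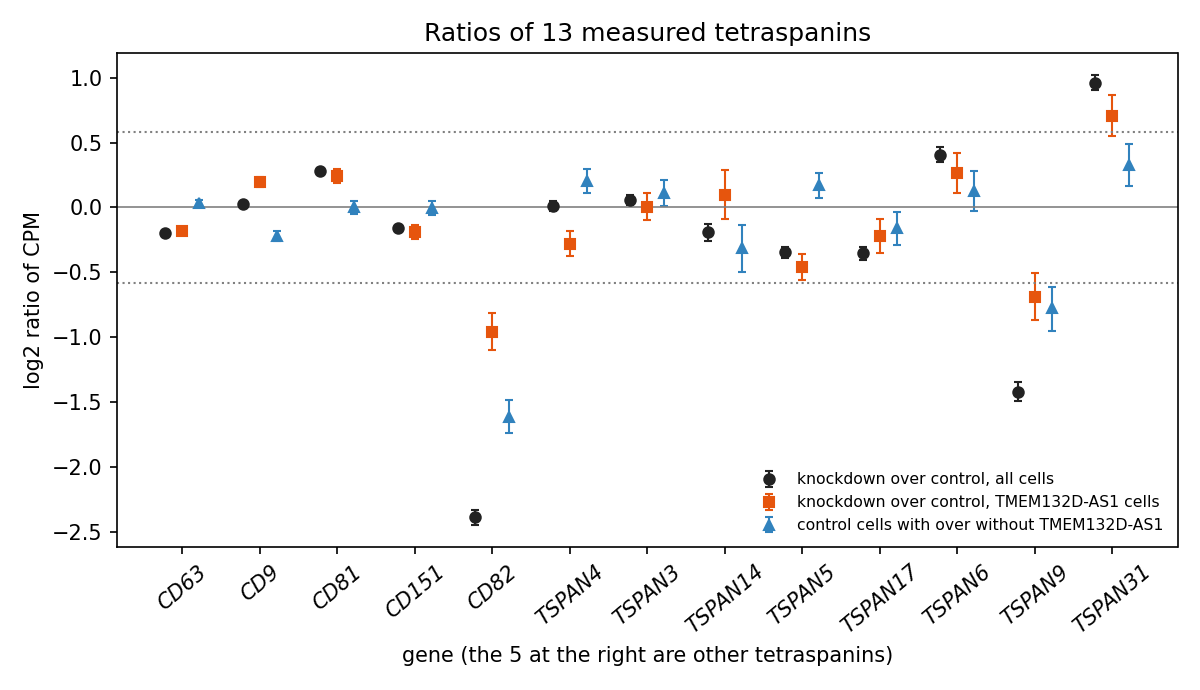
Log2 ratios of CPM for the 13 measured tetraspanins, with 8 of the 9 genes at the left and 5 other family members at the right; symbols are ratios of sums over cells, bars are exact conditional binomial 95% intervals of counting error, and dotted lines mark 1.5-fold. CD82 and TSPAN9 lie below the lower line in all 3 comparisons, and TSPAN31 lies above the upper line in the comparisons between libraries.

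The remaining CD82 gap among TMEM132D-AS1 cells depended on how strictly the class was drawn. In control cells CD82 was at 117 CPM with no TMEM132D-AS1 UMI (4102 cells), 46.5 CPM with 1 (42 cells), 59.4 CPM with 2 to 3 (40 cells), 48.5 CPM with 4 to 7 (86 cells) and 25.3 CPM with 8 or more (115 cells). In knockdown cells the same bands gave 26.5, 21.7, 17.1, 19.8 and 19.9 CPM. The control bands with TMEM132D-AS1 all lay below the band without it, and the knockdown bands ran from 17.1 to 26.5 CPM, with the highest level in the band without the transcript. At 8 UMIs or more, CD82 was at 25.3 CPM in control (21.7 to 29.2) and 19.9 CPM in knockdown cells, a log2 ratio of -0.34 (-0.57 to -0.11), which no longer passed the size rule.

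MAN1A1, a Golgi mannosidase, was at 77.0 CPM in the control and 1.09 CPM in the knockdown library, and it was lower in the same control bands the more TMEM132D-AS1 they held (81.7, 51.6, 18.2, 16.0 and 7.0 CPM). Of the 241 control TMEM132D-AS1 cells, 206 had no MAN1A1 UMI (median 48920 UMIs per cell), and their CD82 level was 25.4 CPM (22.5 to 28.6). The other 35 had at least 1 (median 65867 UMIs per cell), and theirs was 85.5 CPM (75.1 to 96.9). Knockdown cells of the class without a MAN1A1 UMI had CD82 at 19.1 CPM. The log2 ratio to the 206 control cells was -0.41 (-0.59 to -0.22), which did not pass the size rule either. The 33 knockdown cells of the class with a MAN1A1 UMI (median 67982 UMIs per cell) had CD82 at 36.5 CPM (29.5 to 44.5), below the 35 control cells with one. Free RNA, in barcodes of 10 to 100 UMIs, held CD82 at 74.5 CPM and MAN1A1 at 78.2 CPM in the control library, against 14.6 and 2.52 CPM in the knockdown library. The part of free RNA, or of barcodes with more than 1 cell, in the CD82 level of the control class was not tested, and both the limit of 8 UMIs and the split by MAN1A1 were chosen after the data were seen.

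**Figure D3:**
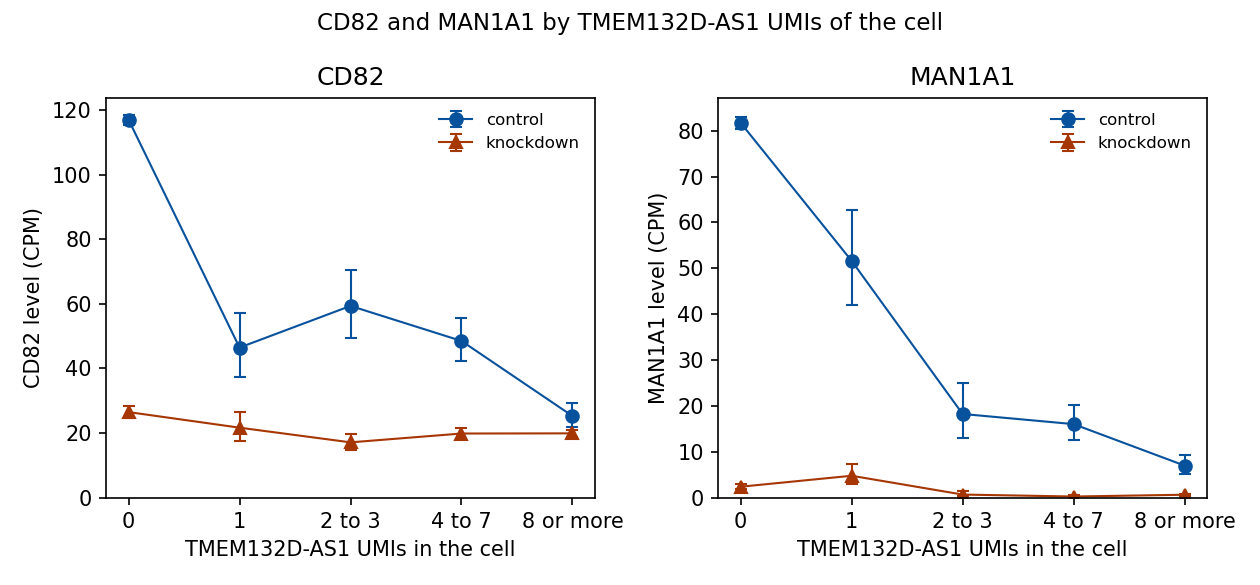
CD82 (left) and MAN1A1 (right) levels in CPM by the number of TMEM132D-AS1 UMIs in the cell, for control (circles) and knockdown cells (triangles), with 95% Poisson intervals of counting error. CD82 in control cells goes from 117 CPM at 0 UMIs to 25.3 CPM at 8 or more, beside 19.9 CPM in knockdown cells, and MAN1A1 in control cells goes from 81.7 to 7.0 CPM.

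Per cell, CD82 UMIs were found in more control than knockdown cells. With each cell thinned to 15000 UMIs, 59.5% of control cells (58.0 to 61.0%) and 23.1% of knockdown cells (21.5 to 24.7%) held at least 1 CD82 UMI; unthinned, the shares were 79.3% and 45.8%. The share was 61.3% in control cells below 2 TMEM132D-AS1 UMIs, 29.05% (23.4 to 35.2%) in control TMEM132D-AS1 cells and 21.7% (19.9 to 23.6%) in knockdown TMEM132D-AS1 cells. Since CD82 is also present in free RNA, a share of cells with a UMI is not a share of cells that express it. Of the control cells below 2 TMEM132D-AS1 UMIs, 8.61% held 5 or more CD82 UMIs and 43 cells held 10 or more, while no knockdown cell held more than 6. CD63 and CD9 were found in nearly every cell, with at least 1 thinned UMI in 99.9% and 98.9% of control cells and in 99.7% and 98.7% of knockdown cells.

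**Figure D4:**
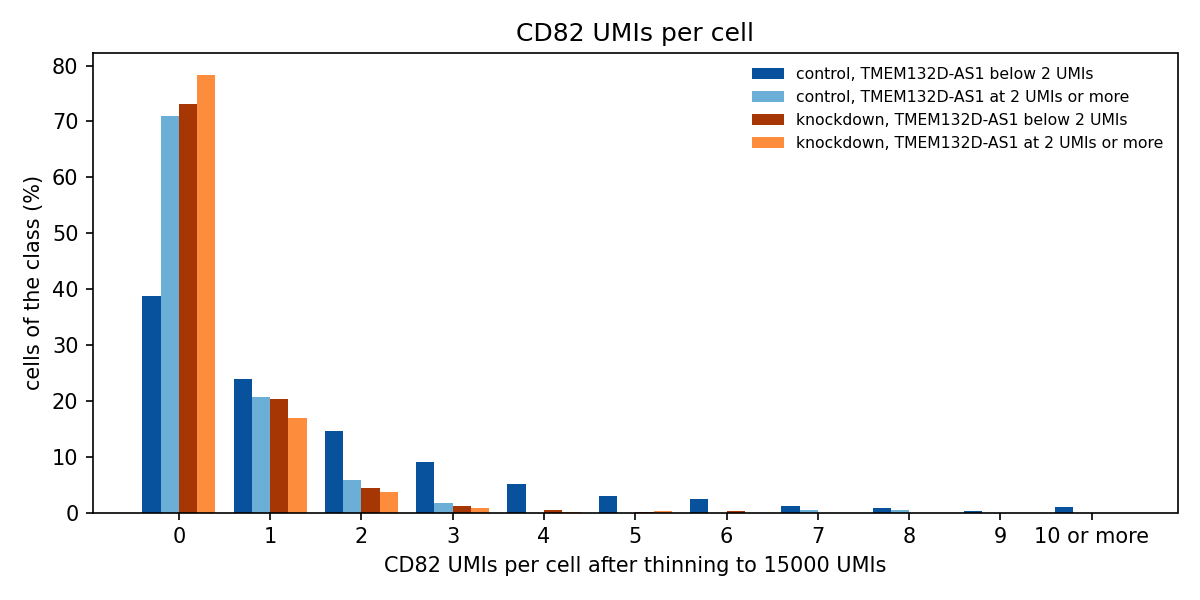
Share of cells (%) by the number of CD82 UMIs after thinning each cell to 15000 UMIs, in 4 classes of cells of 1 library per group. Zero UMIs were found in 38.7% of control cells below 2 TMEM132D-AS1 UMIs and in 71.0 to 78.3% of the other 3 classes.

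The control cells rich in CD82 also held more of some other tetraspanins. Among control cells below 2 TMEM132D-AS1 UMIs, those with 0, 1, 2 to 4 and 5 or more thinned CD82 UMIs (1605, 993, 1189 and 357 cells) had CD63 at 1097, 1247, 1390 and 1666 CPM. TSPAN9 was at 25.1, 38.9, 54.9 and 68.0 CPM in the same cells, and TSPAN4 at 54.2, 60.6, 65.3 and 86.1 CPM. CD151 went from 210 to 268 CPM and CD9 from 466 to 572 CPM. CD81 (227 to 255 CPM) and TSPAN3 (59.2 to 55.8 CPM) moved little, and TSPAN14 was lowest in the CD82-rich cells (25.4 to 20.2 CPM). The cells rich in CD82 had been sequenced more deeply before thinning, with medians of 40463, 43010, 47304 and 54538 UMIs, and the part of cell size or phase in these differences was not tested.

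Several of the 9 genes varied with cell cycle state by more than they differed between the libraries. Cells were split into tertiles by the share of UMIs in S, G2 and M phase genes, with cut points over both libraries, at 0.0513% and 0.278%. TSPAN4 was at 35.3, 63.1 and 77.6 CPM in control cells of the lowest, middle and highest tertile, and at 43.5, 65.5 and 89.0 CPM in knockdown cells. TSPAN14 ran the other way, at 34.2, 26.6 and 18.0 CPM in control and 27.1, 22.2 and 12.7 CPM in knockdown cells. TSPAN3 (72.4, 57.8 and 53.5 CPM in control, 79.5, 61.0 and 40.4 CPM in knockdown) was also lower in cells with more phase genes. The tertiles also differed in depth, with median UMIs per control cell of 33000 in the lowest and 58980.5 in the highest tertile.

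Over all cells of each library, CD82 was higher in cells with more phase genes. It was at 81.3, 95.1 and 133 CPM in control and 17.0, 20.1 and 26.7 CPM in knockdown cells. The log2 ratio between the libraries was -2.25, -2.24 and -2.31 in the 3 tertiles, beside -2.39 without the split. Control TMEM132D-AS1 cells did not follow this order, with CD82 at 31.6, 48.8 and 34.2 CPM, beside 15.5, 19.5 and 24.3 CPM in knockdown TMEM132D-AS1 cells. Among TMEM132D-AS1 cells the CD82 ratio was -1.02 in the lowest tertile (62 control cells) and -1.32 in the middle tertile (83). It was -0.49 (-0.70 to -0.28) in the highest tertile (96), where it did not pass the rule. CD9 was at 369 CPM in control and 514 CPM in knockdown cells of the lowest tertile (log2 ratio 0.48), but at 534 and 484 CPM in the highest tertile (-0.14). In the lowest tertile of TMEM132D-AS1 cells alone, CD9 passed the rule, at 322 CPM in control and 512 CPM in knockdown cells (0.67, 0.57 to 0.77). CD63 was at 1274 and 1250 CPM in the lowest tertile and at 1147 and 841 CPM in the highest, with ratios of -0.03, -0.26 and -0.45 from the lowest to the highest. CD81 was at 261 and 351 CPM in the lowest tertile and level at 216 and 218 CPM in the highest.

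Within the knockdown library, CD82 was at 18.6 CPM in the 1507 cells with no GANAB UMI after thinning, 21.2 CPM in the 823 cells with 1 and 25.7 CPM (21.5 to 30.5) in the 342 cells with 2 or more. All 3 levels lay below the control level of 111 CPM. Knockdown cells with fewer than 2 TMEM132D-AS1 UMIs had GANAB at 54.0 CPM and CD82 at 25.9 CPM, beside 38.1 and 19.6 CPM in knockdown TMEM132D-AS1 cells, and the part of that class in the difference by GANAB was not tested. Knockdown cells with 10 or more UMIs of the interferon-induced genes IFIT1 to IFIT3 (427 cells) had CD82 at 22.1 CPM and CD9 at 498 CPM, beside 21.1 and 512 CPM in the other 2245 cells.

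Among the other measured tetraspanins, TSPAN9 passed the size rule in the direction of CD82 and TSPAN31 passed it in the opposite one. TSPAN18, below the level for measurement, also had the direction of CD82, as given below. Of the 33 family genes, 13 were measured between the libraries, of which 2 were lower (CD82 and TSPAN9) and 1 was higher (TSPAN31). Their median log2 ratio was -0.16, against -0.07 over all measured genes, of which 10.4% were lower and 7.69% were higher. TSPAN9 (GRCh38 chromosome 12, 3077355 to 3286564) was at 36.6 CPM in control and 13.7 CPM in knockdown cells (-1.42, -1.50 to -1.35). It was also lower among TMEM132D-AS1 cells (21.9 and 13.6 CPM, -0.69) and in control TMEM132D-AS1 cells against the other control cells (21.9 and 37.6 CPM, -0.78). Among TMEM132D-AS1 cells the TSPAN9 call was lost at 4 UMIs or more (-0.57), at 8 or more (-0.55) and in cells without MAN1A1 (-0.52).

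TSPAN31 (chromosome 12, 57738013 to 57750211) was at 20.7 CPM in control and 40.3 CPM in knockdown cells (0.96, 0.90 to 1.02), and at 25.6 and 41.8 CPM among TMEM132D-AS1 cells (0.71). It was lower the higher the phase gene share, at 37.2, 25.7 and 11.6 CPM in control and 59.7, 45.7 and 14.8 CPM in knockdown cells. Within tertiles its whole-library ratio was 0.68, 0.83 and 0.36, so the call was lost in the highest tertile. Among TMEM132D-AS1 cells it passed the rule in none of the tertiles (0.41, 0.55 and 0.02). CDK4, which overlaps TSPAN31 on the opposite strand, was at 162 CPM in control and 212 CPM in knockdown cells. Whether counting used the strand of a read is not stated in the labels, so reads of the 2 genes may not have been told apart, and the same holds for CD151 and POLR2L (470 and 611 CPM).

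The TspanC8 tetraspanins, which each bind ADAM10, stayed within 1.5-fold where measured. TSPAN5 was at 65.9 CPM in control and 51.8 CPM in knockdown cells (-0.35), TSPAN17 at 44.5 and 34.8 CPM (-0.35) and TSPAN14 as given above. TSPAN33 (3.80 and 5.18 CPM), TSPAN15 (3.78 and 3.87 CPM) and TSPAN10 (1.07 and 1.52 CPM) were below the level for measurement, and ADAM10 was at 44.2 and 48.9 CPM (0.14). TSPAN6, outside this group, was at 25.4 and 33.7 CPM (0.41). TSPAN18, which lies beside CD82 at 44726465 to 44932421 on chromosome 11, had 1328 UMIs in control and 78 in knockdown cells (6.20 and 0.588 CPM) and so was not measured under the rule. Among TMEM132D-AS1 cells its log2 ratio was -2.47 (-3.14 to -1.79, 35 control and 45 knockdown UMIs). In control TMEM132D-AS1 cells against the other control cells it was -1.33 (-1.86 to -0.85). TSPAN1 (2.53 and 1.63 CPM) and ROM1 (2.40 and 3.33 CPM) were also below the level for measurement. The remaining genes, among them the urothelial plaque proteins UPK1A and UPK1B and the leukocyte tetraspanins CD37 and CD53, were below 1 CPM in both libraries.

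Around CD82 on chromosome 11, 14 of 27 measured genes that start within 5 Mb were lower in knockdown cells and 2 were higher (median log2 ratio -0.61). MTCH2 had the lowest ratio of the 27 (-0.98), and PTPRJ, at 7.36 CPM in control and 13.4 CPM in knockdown cells, had the highest (0.86). TSPAN18, below the level for measurement, had a ratio of -3.40 (-3.75 to -3.07). In the comparison within the control library the median of these 27 genes was -0.40, with 4 lower, and among TMEM132D-AS1 cells it was -0.20, with none lower. The shares of all measured genes that were lower in these comparisons were 4.41% and 4.59%, in that order. Within 1 Mb, HSD17B12 was at 61.7 CPM in control and 31.6 CPM in knockdown cells (-0.97), ALKBH3 at 13.8 and 9.27 CPM (-0.58) and EXT2 at 16.5 and 13.5 CPM (-0.29). Of the 4 measured genes within 1 Mb, the 1 remaining gene, which overlaps TSPAN18 on the opposite strand, was higher, at 11.8 and 18.1 CPM (0.62). Over the whole short arm, 43 of 149 measured genes were lower and 2 were higher within the control library (median -0.38). Among TMEM132D-AS1 cells, 6 of 136 short-arm genes were lower in the knockdown and none was higher (median -0.21). Between the whole libraries, 64 of 147 short-arm genes were lower in knockdown cells and 4 were higher (median -0.51). Genome-wide, 10.4% of measured genes were lower and 7.69% were higher. The 3 other genes of the 9 on this arm, CD81, CD151 and TSPAN4, lie near its end, where the median over genes within 2 Mb was -0.16 for CD81, -0.11 for CD151 and -0.14 for TSPAN4. Around TSPAN9 that median was -0.53 (14 genes), and around TSPAN31 it was 0.31 (48 genes). Among TMEM132D-AS1 cells the medians were -0.30 around TSPAN9 (14 genes) and -0.06 around TSPAN31 (51 genes), where TSPAN31 itself was at 0.71. No DNA was measured, and the part of gene dosage in these levels was not tested.

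**Figure D5:**
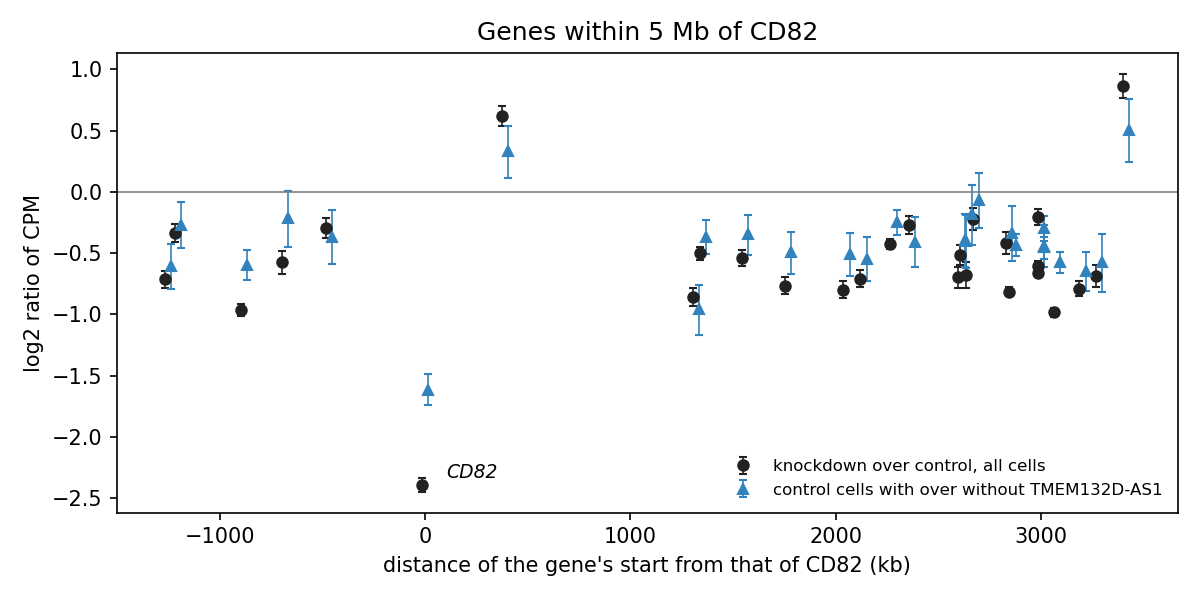
Log2 ratios of CPM for CD82 and the 27 measured genes that start within 5 Mb of it, by distance of their start from that of CD82 in kb, between the libraries (circles) and within the control library (triangles), with exact conditional binomial 95% intervals. CD82 lies at -2.39 and -1.61, below every measured neighbour, and the medians of the measured neighbours are -0.61 and -0.40. TSPAN18, below the level for measurement and at -3.40 between the libraries, is not shown.

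Genes with a profile like that of CD82 were sought over 12 groups of cells (library, TMEM132D-AS1 class and phase tertile), by Euclidean distance of centred log2(CPM + 1) levels. The 5 nearest were ARG2, a mitochondrial arginase (distance 0.916), DSE, a dermatan sulfate epimerase (1.13), MARCH3, a membrane-bound ubiquitin ligase (1.16), the noncoding FRMD6-AS1 (1.19) and ADAM12, a metalloprotease (1.19). ARG2 was at 31.8 CPM in control and 6.32 CPM in knockdown cells, and DSE at 56.0 and 13.3 CPM. The other 8 genes of the 9 lay at distances of 3.14 to 4.24 from CD82, and TSPAN9 at 2.11. None of the 5 nearest lies on chromosome 11. All 12 groups come from 2 libraries, so the likeness is a description of these cells.

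Messenger RNAs of proteins that tetraspanins gather mostly stayed within 1.5-fold or were higher, and MMP14 was lower. Of 28 listed partners 17 were measured, of which 5 were higher and 1 was lower in the knockdown library (median log2 ratio 0.14). All measured genes gave 7.69% higher and 10.4% lower. The laminin receptor subunit ITGA6 was at 46.4 CPM in control and 98.1 CPM in knockdown cells (1.08) and the fibronectin receptor subunit ITGA5 at 11.04 and 20.7 CPM (0.91). ERBB2 (8.82 and 15.8 CPM, 0.84), IGSF8 (5.92 and 10.5 CPM, 0.83) and the growth factor HBEGF (22.2 and 36.9 CPM, 0.73) were also higher. MMP14, a membrane protease, was at 58.2 and 19.97 CPM (-1.54). ITGB1 (717 and 797 CPM, 0.15) and CD44 (235 and 158 CPM, -0.57), the most abundant of the list, did not pass the rule. Among TMEM132D-AS1 cells none of the 17 measured partners was higher, and MMP14 (36.4 and 19.8 CPM, -0.88) and TFRC (20.5 and 13.3 CPM, -0.62) were lower. In that comparison 3.58% of all measured genes were higher and 4.59% were lower, so the absence of higher partners is near the share over all genes.

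Genes of exosome and multivesicular endosome formation were lower about as often as measured genes in general. Of 36 listed, 32 were measured, none was higher and 4 were lower in knockdown cells (median 0.04). Over all measured genes, 7.69% were higher and 10.4% were lower. The 4 were the ESCRT-I subunits TSG101 (48.8 and 25.9 CPM, -0.92) and VPS37B (31.0 and 18.9 CPM, -0.72), the phospholipase PLD2 (10.2 and 6.07 CPM, -0.75) and the ATPase VPS4A (39.2 and 25.9 CPM, -0.60). VPS37B alone of 31 measured was lower among TMEM132D-AS1 cells (-0.64), where the median was 0.02 and none was higher. In that comparison 4.59% of all measured genes were lower and 3.58% were higher. The most abundant were VPS28 (219 and 225 CPM) and RAB11A (200 and 204 CPM).

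Of 13 genes listed as regulators of CD82, 12 were measured, 2 were higher and 1 was lower in the knockdown library (median -0.02). The shares over all measured genes were 7.69% higher and 10.4% lower. KLF4, a transcription factor, was at 7.44 CPM in control and 45.4 CPM in knockdown cells (2.61), and among TMEM132D-AS1 cells at 14.8 and 47.8 CPM (1.69). JUNB, an AP-1 factor and the most abundant of the list, was at 177 and 285 CPM (0.68) and level among TMEM132D-AS1 cells (0.18). RUVBL1, an ATPase of chromatin complexes, was at 127 and 84.1 CPM (-0.59). NDRG1, a stress-induced gene linked to metastasis suppression, was lower among TMEM132D-AS1 cells (16.2 and 8.65 CPM, -0.91), and between the libraries it was at 12.2 and 8.60 CPM (-0.50). RUVBL2, with the next highest mean level, was at 122 and 93.0 CPM (-0.39).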

How the data were processed

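Single-cell 3' libraries (10x Genomics Chromium, v3 chemistry) of 1 control and 1 GANAB knockdown group were made per the labels, which do not say whether cells came from separate animals. The deposited matrices hold raw counts of UMIs per gene and barcode, made with software version 3.1.0 per the file headers; the submitters' processing notes name Cell Ranger 3.1.0 and GRCh38. All 33538 genes are human, and no label says whether mouse sequence was in the reference, so reads of host cells may have been counted as human genes. Each matrix lists 6794880 barcodes, and the totals were 239857346 UMIs (control) and 155064055 UMIs (knockdown).

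Counts were summed over cells (at least 15000 UMIs, at most 20% mitochondrial, which left out 1 control and 2 knockdown barcodes) with Python 3.11.15, numpy 2.4.6, scipy 1.17.1 and pandas 2.3.3. Doublets were not called or removed. Ratios carry exact conditional binomial intervals, shares Clopper-Pearson intervals and levels exact Poisson intervals. With 1 library per group no count test such as a quasi-likelihood fit was possible. The code was tested on simulated data. Cells were thinned with 1 seeded draw. Positions came from GENCODE 29 by gene identifier (33427 matched), and promoter windows from a RefSeq table (GRCh38.p14). Windows of TSPAN9, TSPAN18, CD81, CD151 and TSPAN3 were not used here. A planned description of proteins was not run.

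The 9 genes, the lists and the size rule were chosen with earlier results of these data known. Named were the 9 genes, tetraspanins at 1 CPM or more, list members past the size rule (up to 6) with the 2 most abundant, measured neighbours of CD82 within 1 Mb (1 of them given without its symbol) and the 5 genes nearest in profile. MAN1A1, MTCH2, PTPRJ, ITGA3 and genes named only to spell out a small group were chosen after their values were seen. Values of some single genes are not reported here. Alternatives tried were other limits on UMIs, mitochondrial share, scaling, thinning, size, level, phase, interferon genes and TMEM132D-AS1.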

Additional observations from a re-analysis of the deposited data

Results flagged for a closer look

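TSPAN13, almost without UMIs in cells, was found in barcodes below the limit for cells. In barcodes of 10 to 100 UMIs, which hold free RNA, it was at 10.3 CPM in the knockdown library (45 UMIs, 95% Poisson interval 7.51 to 13.8) and at 1.58 CPM in the control library (8 UMIs, 0.681 to 3.11). In cells it was at 0.482 and 0.187 CPM. These barcodes were outside the comparisons above, and the level in them was higher than in the control library. Between the limits, TSPAN13 was at 28.6 CPM in knockdown and 10.2 CPM in control barcodes from 1000 to below 5000 UMIs, and at 20.7 and 5.58 CPM in those from 5000 to below 15000 UMIs. For CD82, the barcodes from 1000 to below 5000 UMIs held 10.8 CPM in the knockdown and 45.0 CPM in the control library. In the same barcodes the fibroblast gene COL1A1 was at 1994 CPM in the knockdown and 1315 CPM in the control library, beside 5.18 and 6.61 CPM in cells. Of the leukocyte genes, PTPRC was at 5.94 and 10.2 CPM there. The leukocyte genes CD53, TYROBP and CD74 had 0 UMIs in these barcodes of both libraries. LYZ (0.540 and 0.151 CPM) and CD37 (0.180 and 0.151 CPM) were nearly absent. Which cells the TSPAN13 UMIs came from was not tested.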

How the results depend on the processing

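CD82 stayed lower in the knockdown library under each alternative run. Its ratio between the libraries left the counting interval of the value given when centred on the median of measured genes (-2.32), with cells thinned (-2.32) and without the highest phase tertile (-2.28). Among TMEM132D-AS1 cells it was -0.635 with cells thinned (1 draw, few UMIs), -1.275 without the highest phase tertile, -0.777 at 4 TMEM132D-AS1 UMIs or more, -0.814 at 1 thinned UMI or more, and, past the rule no longer, -0.344 at 8 or more and -0.409 without MAN1A1 UMIs. The number of the 9 genes lower among TMEM132D-AS1 cells went from 1 to 0 at 2-fold, at 8 UMIs or more and without MAN1A1. Over the family, 4 genes were lower in both comparisons between the libraries (all cells and TMEM132D-AS1 cells) when measured at 1 CPM (CD82, TSPAN9, TSPAN1 and TSPAN18). In TMEM132D-AS1 cells the family count of lower genes was 1 at 4 UMIs or more (CD82), and 0 at 2-fold, at 8 or more and without MAN1A1. The count of higher family genes went from 1 to 0 at 2-fold in both comparisons and without the highest phase tertile in TMEM132D-AS1 cells, and to 2 there at 1 CPM (TSPAN31 and ROM1). Of 230 ratios of the other 8 genes, TSPAN9 and TSPAN31 under alternatives, 171 stayed inside their counting interval and 59 did not. Apart from TSPAN13, the largest move was 0.288 on the log2 scale. No paired analysis was possible because each group is 1 library, and no library could be left out.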
